A study of Homo sapiens with 8 samples.

Results

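The 10 genes studied belong to the NF-κB pathway and were followed in 2 clear cell renal cell carcinoma (ccRCC) lines after knockdown of SLINKY, a long non-coding RNA. They were the subunit genes NFKB1, NFKB2, RELA and RELB, the feedback genes NFKBIA, TNFAIP3 and TRAF1, and the inhibitor of apoptosis (IAP) genes BIRC2, BIRC3 and XIAP. The list was chosen by name with the knockdown values known, because BIRC3 was above the control with both siRNAs, so the comparison of siRNA with control is given for these genes as a description with no test. These were 10 of the 22678 genes with a symbol in the RefSeq part of the data, and all 10 were among the 11367 genes with a mean of at least 1 FPKM (a level per transcript length and per library depth) over the 8 libraries.

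The lines were A498 and 786-O, both ccRCC lines of the kidney. Each line was transfected with Lipofectamine 2000 for 16 h with a non-targeting control siRNA (NTC, 2 libraries per line) or with 1 of the 2 siRNAs against SLINKY (siRNA #1 and siRNA #2, 1 library each per line), all at 50 nM. A498 cells were grown in DMEM and 786-O cells in RPMI-1640, so the line and its medium cannot be told apart. Nothing in the sample descriptions says that the NTC libraries came from separate cultures, and p-values therefore measure the spread between these libraries, which may be technical.

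SLINKY itself was at 14.6 and 16.1 FPKM in the A498 NTC libraries and at 1.64 and 3.01 FPKM with siRNA #1 and siRNA #2. In 786-O it was at 1.45 and 1.39 FPKM in NTC and at 0.0569 and 0.594 FPKM with the siRNAs, so the reduction ran from 58.2% to 96.0% over the 4 siRNA libraries. The estimated depth was 25105767 to 64631928 mapped reads per library. The renal lineage factor PAX8 was at 39.2 to 48.1 FPKM in every library and PAX2 at 1.06 to 1.84 FPKM, whereas CA9, a hypoxia target often used as a ccRCC marker, stayed between 0 and 0.559 FPKM. Of the 5 markers of other cell types, the leukocyte gene PTPRC and the T-cell gene CD3E were listed at 0 in all 8 libraries and the endothelial genes PECAM1 and CDH5 reached at most 0.0385 FPKM. CD68, a lysosomal protein used as a macrophage marker, was at 138 to 151 FPKM in A498 and 1.70 to 5.20 FPKM in 786-O, and its part in the differences between the lines was not tested.

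NF-κB is a family of dimeric transcription factors that sit in the cytoplasm bound to inhibitory IκB proteins until a receptor signal releases them. In the canonical branch the IκB kinase complex marks IκBα (NFKBIA) for destruction and frees dimers of RELA with the product of NFKB1. In the non-canonical branch the kinase NIK triggers processing of the NFKB2 product, which pairs with RELB. Several targets act back on the pathway: NFKBIA re-captures the dimers, TNFAIP3 (A20) removes activating ubiquitin chains, and BIRC3 and BIRC2 encode the ubiquitin ligases cIAP2 and cIAP1, which act at TNF receptors and keep NIK low.

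The regions before the start sites of these genes are shown to set the letters of the NF-κB site beside the values. BIRC3, NFKBIA, TNFAIP3 and NFKB1 were above both NTC libraries of their line in every siRNA library. NFKB2, which is a known NF-κB target too, and BIRC2, the neighbour of BIRC3, were not. Against the NTC mean, BIRC2 was also higher in every siRNA library, by 0.0052 to 0.23 on the log2 scale. RefSeq windows (GRCh38.p14) were matched for 9 of the 10 genes, RELB being without one, in 18 windows of 250 bases before to 50 bases after a start site. The consensus NF-κB site, 10 bases long and searched on both strands, matched in 5 of the 9 genes (BIRC3, TNFAIP3, NFKBIA, NFKB1 and NFKB2). Of all genes with such windows, 13.3% of 27305 had at least 1 match. A gene with more windows has more room for a match. Counted per window, 6 of the 18 held a match, against 11.3% of all 35116 windows. The genes were chosen by name for the NF-κB pathway and several are known targets, so nothing is read from these shares. Where a gene had several windows, the one with the most matches is shown. Another NFKB1 window held 0 matches, and the other NFKB2 windows held 0 and 2. The 250 bases before the start site of the window shown are printed 5′ to 3′ along the gene, with the matched bases in capitals:
BIRC3: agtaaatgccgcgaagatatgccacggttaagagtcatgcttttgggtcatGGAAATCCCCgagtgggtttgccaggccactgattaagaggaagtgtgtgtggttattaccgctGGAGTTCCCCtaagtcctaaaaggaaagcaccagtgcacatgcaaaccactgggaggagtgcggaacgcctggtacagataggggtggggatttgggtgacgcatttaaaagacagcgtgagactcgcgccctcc
BIRC2: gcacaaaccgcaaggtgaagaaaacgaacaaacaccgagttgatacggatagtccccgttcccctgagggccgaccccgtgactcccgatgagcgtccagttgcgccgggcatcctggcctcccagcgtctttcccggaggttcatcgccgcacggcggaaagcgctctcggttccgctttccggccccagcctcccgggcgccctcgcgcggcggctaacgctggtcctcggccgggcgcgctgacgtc
NFKBIA: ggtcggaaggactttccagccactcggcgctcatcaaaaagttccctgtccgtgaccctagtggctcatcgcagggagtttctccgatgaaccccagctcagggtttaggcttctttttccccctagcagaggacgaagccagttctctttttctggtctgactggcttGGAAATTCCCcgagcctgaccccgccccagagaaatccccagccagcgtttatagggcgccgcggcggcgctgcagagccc
TNFAIP3: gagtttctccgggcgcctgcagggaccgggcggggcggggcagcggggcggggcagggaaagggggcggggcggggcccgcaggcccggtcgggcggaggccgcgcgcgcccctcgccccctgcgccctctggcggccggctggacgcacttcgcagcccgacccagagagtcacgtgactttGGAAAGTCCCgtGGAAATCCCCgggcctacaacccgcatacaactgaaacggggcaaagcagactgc
NFKB1: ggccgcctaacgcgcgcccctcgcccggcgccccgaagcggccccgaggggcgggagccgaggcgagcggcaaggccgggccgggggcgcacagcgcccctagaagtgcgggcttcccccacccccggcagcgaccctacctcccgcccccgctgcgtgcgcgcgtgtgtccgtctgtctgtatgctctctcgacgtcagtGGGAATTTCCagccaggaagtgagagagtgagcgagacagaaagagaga
NFKB2: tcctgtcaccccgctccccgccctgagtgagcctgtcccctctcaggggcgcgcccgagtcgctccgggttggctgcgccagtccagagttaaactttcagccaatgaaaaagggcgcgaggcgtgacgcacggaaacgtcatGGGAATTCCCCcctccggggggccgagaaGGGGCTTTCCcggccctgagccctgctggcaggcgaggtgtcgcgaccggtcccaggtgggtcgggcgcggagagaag

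The windows lie at chr11:102317234-102317483 (+ strand) for BIRC3, chr11:102346964-102347213 (+ strand) for BIRC2, chr14:35404750-35404999 (- strand) for NFKBIA, chr6:137867009-137867258 (+ strand) for TNFAIP3, chr4:102501109-102501358 (+ strand) for NFKB1, chr10:102394328-102394577 (+ strand) for NFKB2. BIRC3 had 2 matches, 199 to 190 and 135 to 126 bases before its start. TNFAIP3 had 2 matches with the innermost bases 58 and 46 before the start, and the single matches of NFKBIA and NFKB1 ended 72 and 40 bases before it. NFKB2 had 5 matches in 2 windows, and the first capital run printed for it holds 2 overlapping matches. The windows of BIRC2, XIAP, RELA and TRAF1 held none of these letters. A match is a description of the sequence and not a measured binding site.

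BIRC3 (hg19 chr11:102188181-102210135, cIAP2) was above both NTC libraries with each siRNA in each line. In A498 it was at 23.8 and 25.1 FPKM in NTC, 29.0 FPKM with siRNA #1 and 30.0 FPKM with siRNA #2. In 786-O it was at 16.7 and 16.6 FPKM in NTC, 23.9 FPKM with siRNA #1 and 21.5 FPKM with siRNA #2. The siRNA and NTC values did not overlap in either line, and the lowest A498 NTC library was at about the level of the highest 786-O siRNA library. The log2 fold changes against the NTC mean were 0.24 and 0.29 in A498 and 0.52 and 0.37 in 786-O, where the NTC libraries differed by 0.077 and 0.010 on the same scale. Among all 11367 genes these changes stood at percentiles 96.2 and 95.8 in A498 and 98.3 and 97.7 in 786-O. BIRC3 was chosen because it was above NTC, so a high rank follows from the choice and nothing is read from it. The larger RefSeq transcript share, NM_182962, held 80.1% to 85.8% of BIRC3 and NM_001165 the rest. The authors' confidence interval for NM_182962 was wide in 786-O NTC 1, from 3.88 to 24.7 FPKM around 14.3, and in 786-O siRNA #1, from 15.6 to 25.2 FPKM around 20.4. In 786-O NTC 2 and siRNA #2 the intervals were narrow, 13.2 to 14.2 FPKM and 16.6 to 17.9 FPKM. Such intervals cover the estimation error within a library and not the spread between libraries.

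TNFAIP3 (hg19 chr6:138188325-138204451), the ubiquitin-editing enzyme A20, was also above NTC with each siRNA, at a lower level. It was at 6.25 and 6.42 FPKM in A498 NTC and at 7.56 and 7.28 FPKM with siRNA #1 and siRNA #2. In 786-O it was at 4.07 and 3.84 FPKM in NTC and at 5.52 and 4.80 FPKM with the siRNAs. All siRNA libraries lay above the NTC libraries of their line, and siRNA #1 gave the higher value in both lines. The log2 fold changes were 0.25 and 0.20 in A498 and 0.47 and 0.27 in 786-O. The lncRNA entries RP11-356I2.4 and WAKMAR2 overlap its start region, at no more than 0.251 and 0.0965 FPKM.

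NFKBIA (hg19 chr14:35870716-35873960), the inhibitor IκBα, was the most abundant of the 10 genes in 786-O and the second in A498. It was at 47.6 and 48.4 FPKM in A498 NTC and at 51.0 and 52.0 FPKM with siRNA #1 and siRNA #2. In 786-O the values were 51.2 and 52.5 FPKM in NTC and at 57.7 and 61.0 FPKM with the siRNAs. The groups did not overlap in either line, and siRNA #2 gave the higher value in both. The log2 fold changes were smaller than those of BIRC3, 0.087 and 0.11 in A498 and 0.16 and 0.24 in 786-O.

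NFKB1 (hg19 chr4:103422486-103538459), whose product is cut to the DNA-binding partner of RELA, was also above NTC in every siRNA library, by small amounts. It was at 8.70 and 8.68 FPKM in A498 NTC and at 9.38 and 9.24 FPKM with the siRNAs. The 786-O libraries had 13.5 and 14.2 FPKM in NTC and at 14.5 and 15.3 FPKM with the siRNAs. The log2 fold changes were 0.11 and 0.088 in A498 and 0.067 and 0.14 in 786-O, and the 786-O NTC libraries differed by 0.077. The authors' program marked an NFKB1 entry as failed in 5 of the 8 libraries, and the share of NM_001165412 was 97.9% in every library. With failed entries set to missing, an alternative added after seeing the data, the knockdown estimate of NFKB1 moved from 0.10 to 0.029 on the log2 scale. The second value rests on 786-O siRNA #1 against 786-O NTC 2 alone, because both A498 siRNA libraries had a failed entry.

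The other subunits showed no such order. RELA (hg19 chr11:65421067-65430443), the main transactivating subunit of the canonical branch, was at 19.8 and 20.01 FPKM in A498 NTC and 20.2 and 19.6 FPKM with siRNA #1 and siRNA #2. In 786-O RELA was at 29.5 and 29.6 FPKM in NTC, 29.6 FPKM with siRNA #1 and 27.1 FPKM with siRNA #2, so 3 libraries lay close together and 1 below them. A RELA entry was marked as failed in both 786-O NTC libraries.

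NFKB2 (hg19 chr10:104154337-104162286), the precursor of the non-canonical branch, was at 75.8 and 69.5 FPKM in A498 NTC and 71.7 and 68.3 FPKM with the siRNAs. The 786-O values were 37.6 and 42.1 FPKM for NTC, and both siRNA values, 39.5 and 39.6 FPKM, lay between them. RELB (hg19 chr19:45504707-45541456), its partner, was at 24.5 and 22.0 FPKM in A498 NTC and 23.2 and 22.0 FPKM with the siRNAs. In 786-O RELB was at 18.1 and 19.99 FPKM in NTC and 19.9 and 18.0 FPKM with the siRNAs. The NTC libraries of both genes differed by at least as much as the siRNA values did from the NTC mean.

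**Figure D1:**
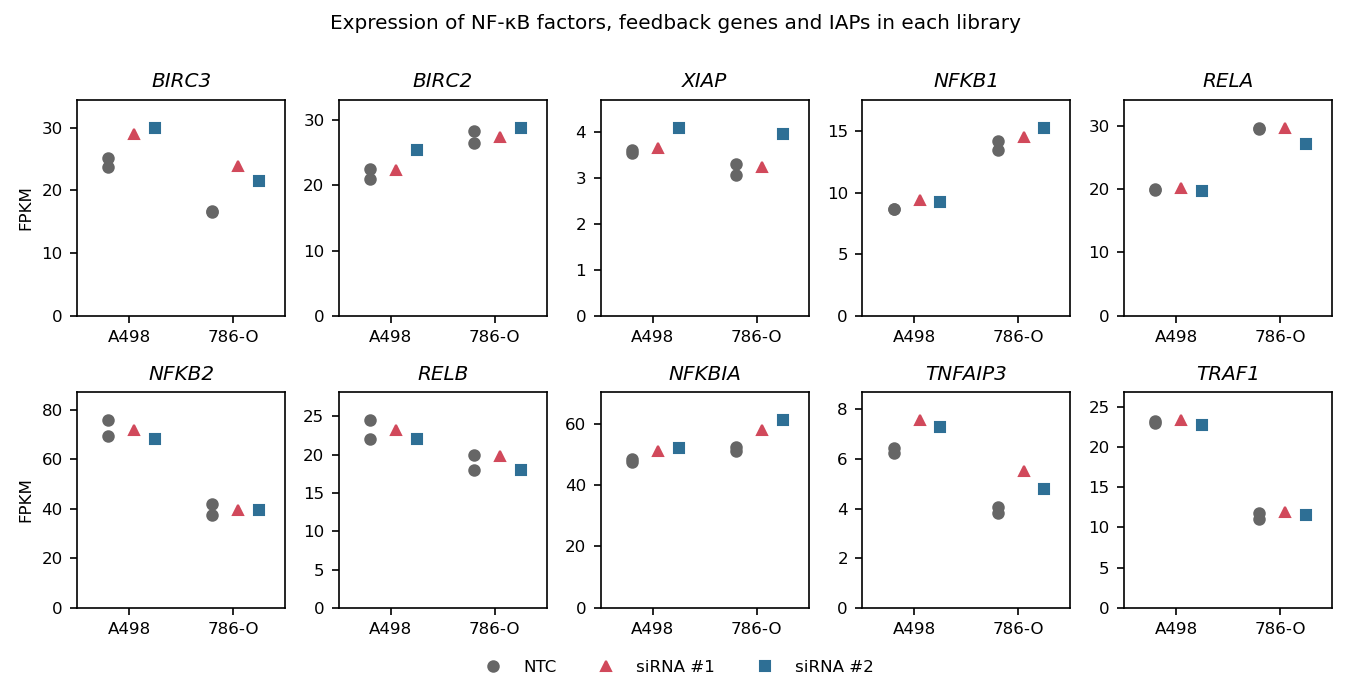
FPKM (vertical axes from 0) of the 10 genes in the 4 libraries of each line, with circles for the NTC libraries, triangles for siRNA #1 and squares for siRNA #2. BIRC3, TNFAIP3, NFKBIA and NFKB1 lie above both NTC circles with each siRNA in both lines, and NFKB2 and TRAF1 separate the lines rather than the siRNAs.

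The other IAP genes were uneven. BIRC2 (hg19 chr11:102217913-102249401, cIAP1), 7.777 kb from BIRC3, was at 21.0 and 22.6 FPKM in A498 NTC, 22.4 FPKM with siRNA #1 and 25.5 FPKM with siRNA #2. In 786-O BIRC2 was at 28.3 and 26.5 FPKM in NTC and 27.5 and 28.8 FPKM with the siRNAs, and NTC and siRNA values overlapped in both lines. XIAP (hg19 chrX:122993662-123047829), a direct caspase inhibitor, was at 3.54 and 3.60 FPKM in A498 NTC and 3.65 and 4.08 FPKM with the siRNAs. In 786-O XIAP was at 3.29 and 3.06 FPKM in NTC, 3.24 FPKM with siRNA #1 and 3.95 FPKM with siRNA #2. With siRNA #2 alone its log2 fold changes were 0.19 and 0.31, against 0.032 and 0.029 with siRNA #1. From 72.0% to 87.4% of XIAP was assigned to the non-coding RefSeq transcript NR_037916, and 1 A498 NTC library had a failed XIAP entry.

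TRAF1 (hg19 chr9:123664671-123691451), an adaptor that binds TRAF2 and the cIAPs and is itself an NF-κB target, was nearly level across treatments. It was at 23.3 and 23.0 FPKM in A498 NTC and 23.3 and 22.7 FPKM with siRNA #1 and siRNA #2. The 786-O libraries had 11.1 and 11.8 FPKM in NTC and 12.0 and 11.6 FPKM with the siRNAs. Its log2 fold changes ran from -0.024 to 0.064.

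At a threshold of 0.32 on the log2 scale, 0 of the 10 genes passed in A498 with either siRNA, 2 (BIRC3 and TNFAIP3) passed upward in 786-O with siRNA #1 and 1 (BIRC3) with siRNA #2. Of all 11367 genes, 2.24% passed upward and 3.33% downward in A498 with siRNA #1, and 3.19% and 4.21% with siRNA #2. In 786-O the shares were 3.96% upward and 3.58% downward with siRNA #1 and 2.95% and 2.82% with siRNA #2. The NTC libraries of one line also differed from each other by at least this threshold in either direction. This held for 6.31% of genes (717) in A498 and 6.12% (696) in 786-O. That comparison sets 1 library against 1, whereas each siRNA library was set against the mean of 2. Against a single NTC library, 641 to 889 genes passed in either direction in A498 with siRNA #1 and 731 to 1377 with siRNA #2. In 786-O, 896 to 1035 passed with siRNA #1 and 762 to 818 with siRNA #2. In all, 4 of the 10 genes (BIRC3, TNFAIP3, NFKBIA and NFKB1) were above both NTC libraries in both siRNA libraries of both lines, and 0 were below. Over all genes 6.56% were above and 4.89% below in this sense. Since BIRC3 was part of the choice, nothing is read from the count. Without A498 NTC 2, BIRC3 also passed the threshold with siRNA #2 in A498, and without 786-O NTC 1 XIAP passed with siRNA #2 in 786-O.

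**Figure D2:**
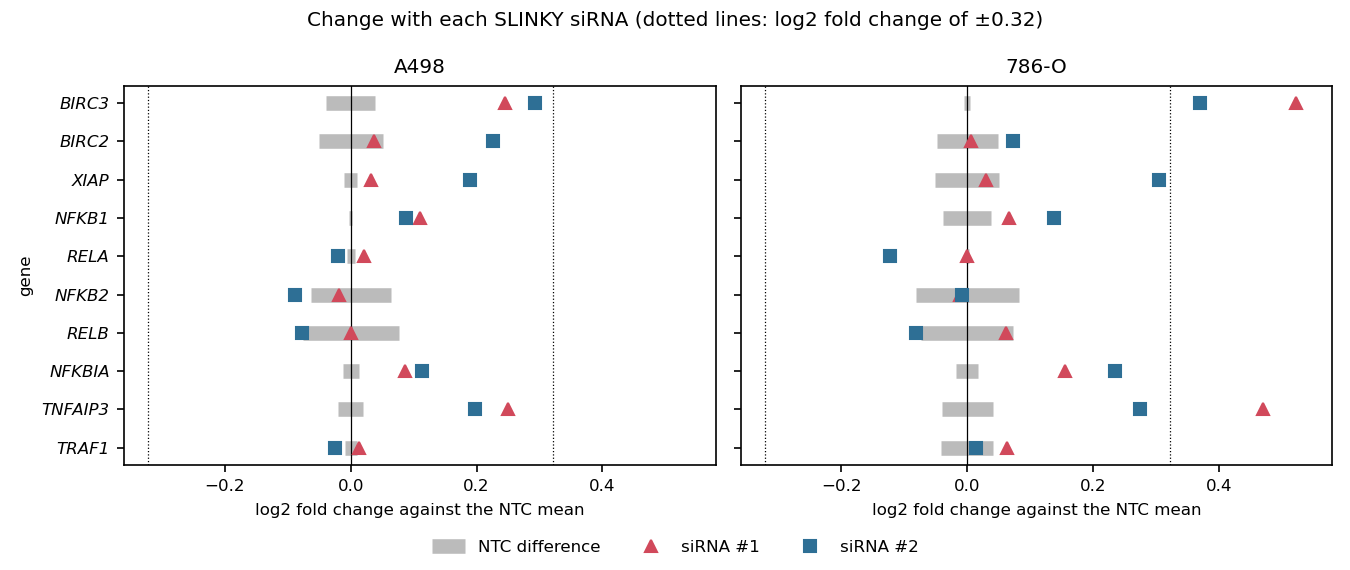
Log2 fold change of each gene with siRNA #1 (triangles) and siRNA #2 (squares) relative to the NTC mean of that line. The grey bar, centred on 0, is as long as the difference between the 2 NTC libraries, and dotted lines mark the threshold of 0.32. BIRC3 reached 0.52 in 786-O with siRNA #1, whereas NFKB2 and RELB stayed within or near the grey bars.

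Over both lines the knockdown estimates (siRNA minus NTC, log2) were 0.36 for BIRC3, 0.30 for TNFAIP3, 0.15 for NFKBIA, 0.14 for XIAP, 0.10 for NFKB1 and 0.086 for BIRC2. They were 0.017 for TRAF1, -0.022 for RELB, -0.030 for NFKB2 and -0.031 for RELA. Over the alternatives BIRC3 ran from 0.31 to 0.39, TNFAIP3 from 0.24 to 0.32, NFKBIA from 0.12 to 0.16 and XIAP from 0.078 to 0.19. NFKB1 ran from 0.029 (786-O siRNA #1 against NTC 2 alone) to 0.12 and BIRC2 from 0.039 (without A498 siRNA #2) to 0.11. TRAF1 ran from -0.0038 to 0.099, RELB from -0.054 to 0.011, NFKB2 from -0.067 to -6.69e-05 and RELA from -0.049 to 0.031. The median over all genes was 0.012. Across all genes limma called 1 gene (0.0088%) for the knockdown, and 1302 genes (11.5%) had an unadjusted p under 0.05. In the test of whether the knockdown change differed between the lines, 16 genes (0.141%) were called and 0 of the 10. Of the 10, 0 had an unadjusted p under 0.05. That test used the libraries from which BIRC3 was known to be above NTC with both siRNAs. It is therefore not independent of the choice of genes, which favours changes that are alike in the lines. The difference in change, A498 minus 786-O, was -0.18 (SE 0.092) for BIRC3, -0.15 for TNFAIP3 and -0.095 for NFKBIA, each with an adjusted p of 0.9999. Over all genes 219 had an unadjusted p under 0.05. A difference in change between the lines was thus not detected for these 10 genes, which does not show that they changed alike.

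The genes closest to BIRC3 over the 8 libraries, after each line's mean was subtracted, were PPP2R2A, a phosphatase regulatory subunit (Pearson r 0.991), UBE2E2, a ubiquitin-conjugating enzyme (0.989), and ZFP36L1, an mRNA-decay factor (0.985), among 10972 genes. ZFP36L1 was at 46.9 and 50.4 FPKM in A498 NTC and 56.1 and 56.3 FPKM with the siRNAs, and at 43.7 and 43.98 FPKM in 786-O NTC and 58.1 and 51.1 FPKM with the siRNAs. Among the 10 genes, TNFAIP3 followed BIRC3 with r 0.977 (rank 9 of the 10972), NFKBIA with 0.890 (rank 159) and NFKB1 with 0.762 (rank 709). XIAP stood at 0.534, BIRC2 at 0.482 and TRAF1 at 0.400, while RELB, NFKB2 and RELA were at -0.105, -0.286 and -0.311. These are descriptions over 8 points that share the same libraries and NTC groups. They are not independent of the siRNA and NTC values of BIRC3, which were known when the list was chosen.

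**Figure D3:**
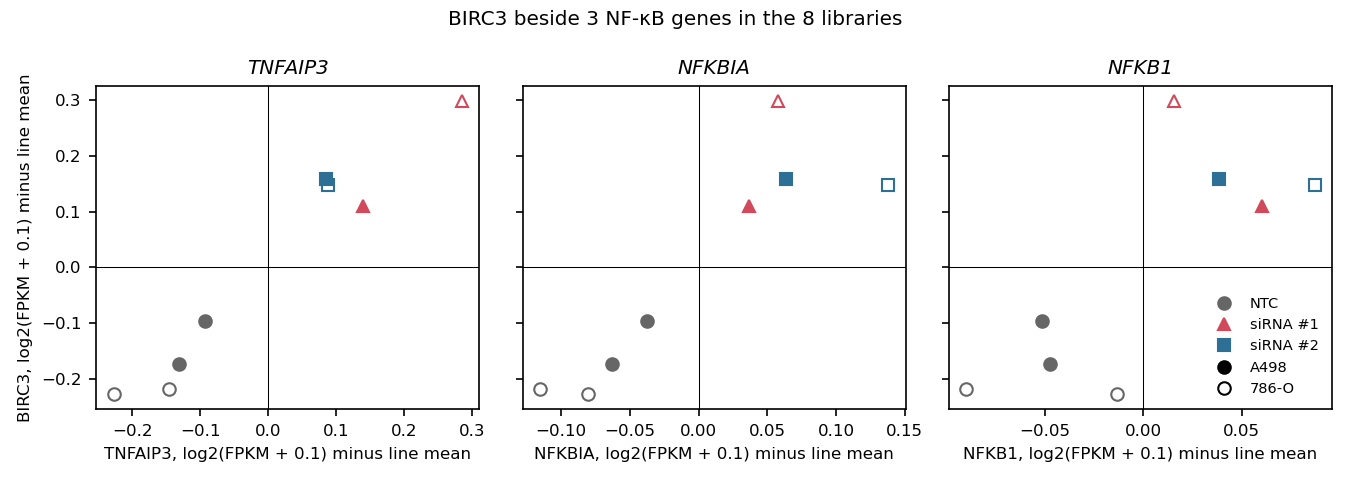
BIRC3 (vertical axis) against TNFAIP3, NFKBIA and NFKB1 (horizontal axes) as log2(FPKM + 0.1) minus the mean of the line, with filled symbols for A498 and open symbols for 786-O. In each panel the 4 NTC libraries sit at the lower left and the 4 siRNA libraries at the upper right.

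The lines differed in 9 of the 10 genes by limma's test over all 8 libraries with knockdown as a term, 5 higher and 4 lower in A498. This share was near that of all genes, of which 80.5% were called, 39.1% higher and 41.4% lower in A498. The median absolute log2 difference was 0.501 for the 10 genes and 0.512 for all. Of the 4 subunit genes, NFKB2 and RELB were higher in A498 and NFKB1 and RELA lower.

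TRAF1 had the largest difference of the 10, 23.1 ± 0.277 FPKM in A498 and 11.6 ± 0.365 FPKM in 786-O (SD, n = 4 libraries each), a log2 difference of 0.99 (SE 0.033, adjusted p = 8.74e-08). NFKB2 was at 71.3 ± 3.32 FPKM in A498 and 39.7 ± 1.86 FPKM in 786-O, a log2 difference of 0.84 (SE 0.048, adjusted p = 1.51e-06). RELB was higher in A498 by 0.27 (SE 0.056, adjusted p = 0.00242). In none of these 3 genes did a 786-O library reach the lowest A498 library.

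NFKB1 was lower in A498, at 8.68 to 9.38 FPKM against 13.5 to 15.3 FPKM, a log2 difference of -0.67 (SE 0.033, adjusted p = 6.09e-07). With failed entries set to missing the difference was -0.70. A498 NTC 1 was then the only A498 library left, so no test is given for that value. RELA was also lower in A498 (-0.54, SE 0.037, adjusted p = 4.44e-06). The ratio of NFKB2 to NFKB1 in FPKM was therefore 7.39 to 8.72 in A498 and 2.59 to 2.96 in 786-O. The ratio of RELB to RELA was 1.10 to 1.23 in A498 and 0.612 to 0.675 in 786-O, and neither ratio overlapped between the lines.

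The feedback genes did not share a direction. TNFAIP3 was higher in A498 by 0.59 (SE 0.057, adjusted p = 3.09e-05), while NFKBIA was lower (-0.16, SE 0.035, adjusted p = 0.00382), and the NFKBIA call was lost with the NTC libraries alone (-0.11, adjusted p = 0.0812). BIRC3 was higher in A498 by 0.46 (SE 0.053, adjusted p = 8.57e-05) and its neighbour BIRC2 lower (-0.28, SE 0.055, adjusted p = 0.00182). BIRC3 exceeded BIRC2 in every A498 library, with ratios of 1.11 to 1.30, and was below it in every 786-O library, with ratios of 0.589 to 0.870. The difference for XIAP, 0.14 (SE 0.071, adjusted p = 0.112), did not pass the threshold.

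**Figure D4:**
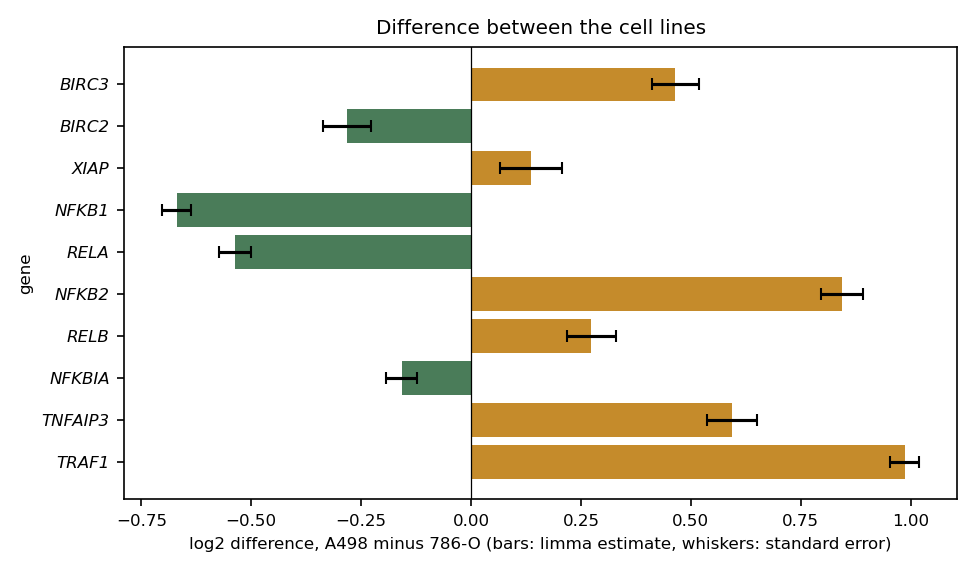
Log2 difference between A498 and 786-O for each gene (limma estimate, whiskers give the standard error), with bars to the right for higher levels in A498. NFKB2 and TRAF1 extend to 0.84 and 0.99, and NFKB1 and RELA to -0.67 and -0.54.

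By mean level, NFKB2 led in A498 and was followed by NFKBIA. BIRC3, TRAF1, RELB and BIRC2 came next, and the range of BIRC3 overlapped those of RELB and BIRC2, as the ranges of TRAF1, RELB and BIRC2 overlapped each other. Below them came RELA, NFKB1, TNFAIP3 and XIAP. In 786-O NFKBIA led, followed by NFKB2. RELA and BIRC2 overlapped, as did BIRC3 with RELB and TNFAIP3 with XIAP, with NFKB1 and TRAF1 between these last pairs. FPKM is scaled to transcript length, so these orders compare genes per length.

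The wider pathway was read from lists of 83 genes, of which 75 passed the expression filter and 65 were not among the 10. For the line comparison 32 of the 65 were higher and 22 lower in A498, against 39.1% and 41.4% of all genes. Among receptors 7 of 10 were higher and 3 lower. TLR4, the lipopolysaccharide receptor, was at a mean of 2.45 FPKM in A498 and 0.0592 FPKM in 786-O, and TLR3, the receptor for double-stranded RNA, at 5.11 and 0.308 FPKM. Both genes, like the adaptor gene TRAF6, passed the expression filter only through A498, so the filter favoured a difference and they are given with no test, although they are in the counts. Their log2 differences depended on the pseudocount, running over the alternatives from 1.70 to 5.17 for TLR4 and from 2.22 to 4.01 for TLR3. The death receptor gene TNFRSF10A was at 11.8 and 3.12 FPKM (log2 difference 1.89, adjusted p = 7.35e-08).

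Of the other NF-κB targets, 12 of 18 were higher and 6 lower in A498. The chemokine gene CCL2 was at a mean of 212 FPKM in A498 and 24.0 FPKM in 786-O (log2 difference 3.17, adjusted p = 8.14e-08). IL6 was at 74.5 and 14.9 FPKM (2.32, adjusted p = 7.70e-08) and CXCL2 at 16.9 and 3.89 FPKM (2.09, adjusted p = 1.75e-07). The anti-apoptotic genes of this list were mixed: CFLAR was at -0.94 (adjusted p = 5.58e-07) and BCL2A1 at -1.76 (adjusted p = 8.56e-07), and BCL2L1 at 1.01 (adjusted p = 2.49e-07).

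Kinases and adaptors were split, 8 of 22 higher and 7 lower. IKBKB, the catalytic kinase of the canonical branch, was at a mean of 8.61 FPKM in A498 and 2.66 FPKM in 786-O (log2 difference 1.66, adjusted p = 3.02e-08), whereas its partner CHUK was lower in A498 (-0.31, adjusted p = 0.00854). NLRC5, a regulator of the pathway and of antigen presentation genes, was higher by 1.40 (adjusted p = 2.55e-06) and the adaptor MYD88 by 1.19 (adjusted p = 0.000106). MAP3K14, which encodes NIK, did not pass (0.67, SE 0.78, adjusted p = 0.447), and its libraries lay far apart. It was at 1.23 and 8.84 FPKM in A498 NTC and at 8.09 and 8.73 FPKM with siRNA #1 and siRNA #2. In 786-O it was at 5.65 and 6.91 FPKM in NTC and at 2.04 and 1.46 FPKM with the siRNAs. The cause of this spread was not tested.

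Of the 13 inhibitors and feedback genes, NFKBIA, TNFAIP3 and TRAF1 included, 5 were higher and 5 lower in A498, led by the deubiquitinase CYLD (1.36, adjusted p = 2.33e-07) and the nuclear IκB protein NFKBIZ (-0.99, adjusted p = 4.79e-07). Among 8 IAPs and antagonists, BIRC2, BIRC3 and XIAP included, 3 were higher and 3 lower. XAF1, an antagonist of XIAP, was at 20.1 FPKM in A498 and 1.62 FPKM in 786-O (3.56, adjusted p = 2.23e-08), and the mitotic survivin gene BIRC5 was lower in A498 (-0.82, adjusted p = 2.77e-07).

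For the knockdown 0 of the 65 genes outside the 10 were called, and 13 had an unadjusted p under 0.05 by limma, against 11.5% of all genes. Of the 65, 8 (12.3%) were above both NTC libraries in both siRNA libraries of both lines, namely NFKBIZ, IKBKB, IRAK4, VCAM1, SOD2, TNFAIP2, SDC4 and CCL2, and 4 (TAB1, TRAF2, SHARPIN and IRAK1) were below, against 6.56% and 4.89% of all genes. Of the 8, 5 were among the 18 other targets, 2 (IKBKB and IRAK4) were kinases and adaptors and 1 (NFKBIZ) an inhibitor, and the 4 below were all kinases and adaptors. VCAM1, a leukocyte adhesion molecule, also stands, like BIRC3, on a list the study drew up from these libraries and is no independent evidence. Its log2 estimate was 0.30 (SE 0.054, adjusted p = 0.301), and that of CCL2 was 0.41 (SE 0.11, adjusted p = 0.357). NFKBIZ was at 0.20 (SE 0.046, adjusted p = 0.334) and SDC4, a surface proteoglycan, at 0.16 (SE 0.036, adjusted p = 0.334). Of the genes below, TAB1 was at -0.10 (SE 0.032), TRAF2 at -0.14 (SE 0.040), SHARPIN at -0.13 (SE 0.059) and IRAK1 at -0.068 (SE 0.027). Some margins were small. With siRNA #2, SOD2 was at 133.7 FPKM in A498, where the higher NTC library was at 131.7 FPKM. In 786-O it was at 62.6 FPKM with siRNA #2, against 62.2 FPKM in the higher NTC library.

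**Figure D5:**
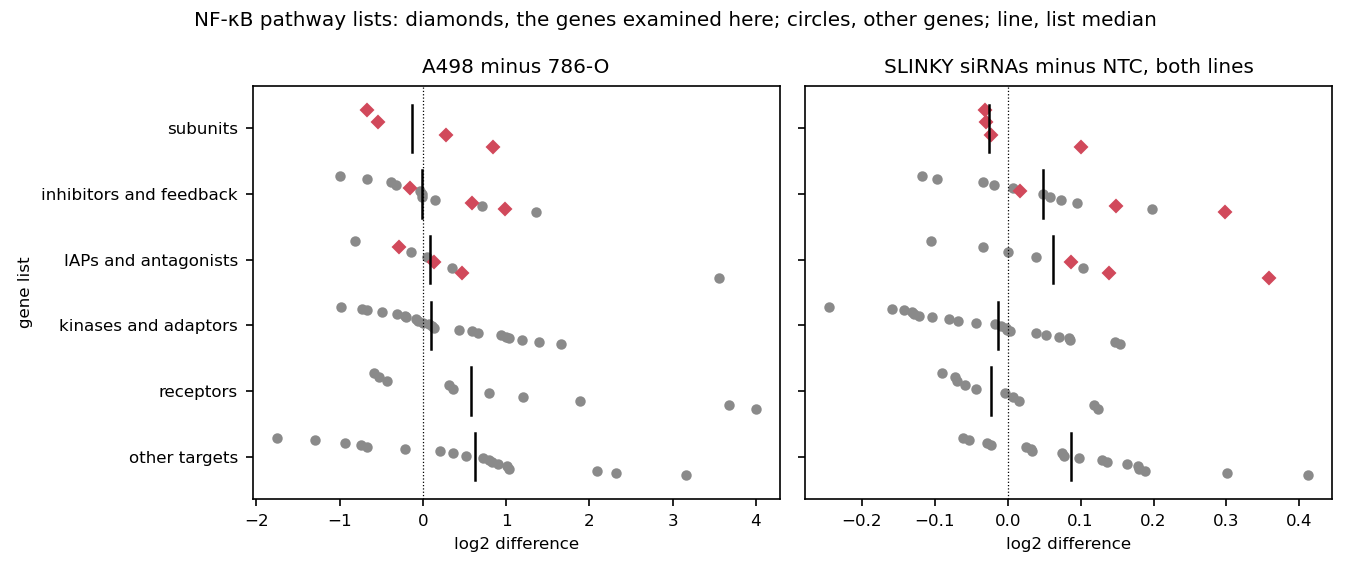
Log2 difference of each tested gene in 6 pathway lists, for A498 minus 786-O (left) and for the SLINKY siRNAs minus NTC over both lines (right). Diamonds are the 10 genes, circles the other genes of a list and black lines the list medians, which reach 0.620 on the left and 0.0874 on the right for the other targets. The horizontal scales of the panels differ.

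The genes around BIRC3 were also read. YAP1, a transcriptional co-activator, had a knockdown estimate of 0.11 (SE 0.049, adjusted p = 0.447), and TMEM123, a membrane receptor gene, of 0.052 (SE 0.090, adjusted p = 0.822). BIRC2 lay between them at 0.086.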

How the data were processed

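RNA of 8 libraries (TruSeq, single-end 36-bp reads) was mapped by the authors with TopHat2 2.0.0 to hg19 and quantified with Cufflinks 2.0.2, per the submitters' processing notes and the study's methods, and the values were deposited as FPKM per transcript entry, normalised for length and depth. Read counts were not analysed here, and depth was estimated from the intervals of single-exon entries. Ambiguous reads among overlapping transcripts were divided by the program, so transcript shares are estimates. RefSeq entries were matched to current symbols (41698 of 43150) and FPKM was summed per symbol. Genes with a mean of at least 1 FPKM were kept, and log2(FPKM + 0.1) was fitted with limma 3.58.1 in R 4.3.3 (line and knockdown terms, trend, Benjamini-Hochberg adjustment at 0.05, plus an interaction fit). Fold changes are on that scale, which understates changes of low genes. With 1 library per siRNA and line, folds against the NTC mean carry no test. Genes and lists were chosen with earlier results of these data known, and the pathway genes named were the 3 with the largest line difference in each list, with CFLAR, BCL2A1, BCL2L1, CHUK, MAP3K14 and those of the knockdown paragraph named after their values were seen. The scripts were tested on simulated data. Alternatives covered the pseudocount, filter, scaling, entry choice, short genes, left-out libraries and pairing.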

Additional observations from a re-analysis of the deposited data

Results flagged for a closer look

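In 786-O, RELA was lowest in the siRNA #2 library, at 27.1 FPKM against 29.5 to 29.6 FPKM in the other 3 libraries, and the gap to the nearest library was 0.958 of the whole range, above Dixon's critical value for 4 samples. It was 1 of 20 groups of 4 libraries examined, and chance alone exceeds this value in about 1 of 20 groups. The A498 library with the same siRNA was at 19.6 FPKM, against 19.8 to 20.2 FPKM in the others. Both 786-O NTC libraries, which are among the 3 that lay close together, had a RELA entry marked as failed.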

How the results depend on the processing

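The line difference of the 10 genes kept its direction under every alternative tried, and the genes called ranged from 7837 with the NTC libraries alone to 12569 with no filter (9150 as reported, 8819 to 8993 leaving out 1 library). NFKBIA lost its call with the NTC libraries alone, and XIAP gained one without 786-O siRNA #2 (0.20, adjusted p = 0.0205) but was at 0.0062 (adjusted p = 0.964) with the highest entry per symbol. The causes of the shifts below were not tested.

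For the knockdown 1 gene was called, 0 without genes spanning under 200 bp, and 1 to 3 leaving out 1 library. For the interaction 16 were called, against 7 with a pseudocount of 0.01, 27 with no filter, 28 at a mean of at least 0.1 FPKM and 1 without short genes. Genes past the fold threshold (A498 siRNA #1 and #2, then 786-O siRNA #1 and #2) numbered 633, 842, 857 and 656. They were 415, 533, 520 and 417 with a pseudocount of 1, 2272, 2847, 2185 and 1734 with no filter, and 1405, 1793, 1698 and 1344 at a mean of at least 0.1 FPKM. With the highest entry per symbol they were 1068 in A498 with siRNA #1, 1438 with siRNA #2, and 1080 in 786-O with siRNA #2, and without short genes 379 in A498 with siRNA #1 and 384 in 786-O with siRNA #2. Against a single NTC library they were 641 to 889, 731 to 1377, 896 to 1035 and 762 to 818, the 1377 being without NTC 2, and of the 10 genes 0, 0 to 1, 2 and 1 to 2 passed.

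NTC libraries with the same number did not deviate together across lines (correlations of -0.0411 and -0.0446), so the numbers were not taken as pairs. For the siRNA libraries the correlations were 0.251 with siRNA #1 and 0.0828 with siRNA #2. Those libraries share a treatment, so these values do not bear on pairing. With the replicate block 9033 genes were called between lines, XIAP among them (0.14, adjusted p = 0.0463), and 1 for the knockdown. For the knockdown the block joined NTC and siRNA libraries of a line by number, a pairing that the labels do not give. With the NTC numbers crossed, a choice made after seeing the data, 9415 genes were called between lines, all 10 genes among them.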
